A study of Mus musculus with 6 samples.

Results

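The RB family, the MuvB core complex and the transcription factors MYBL2 and FOXM1 were followed as 10 genes, taken by their symbols for their known roles, among the 17144 genes listed for each library. They comprise the pocket protein genes RB1, RBL1 and RBL2, the MuvB genes LIN9, LIN37, LIN52, LIN54 and RBBP4, and the activator genes MYBL2 and FOXM1. All 10 were listed in all 6 libraries, and all 10 passed the filter on low counts. Messenger RNA was sequenced from osteosarcoma cells labelled SaOS2, the name of an established human line. Group C holds 3 libraries and group D holds 3. The series design concerns these cells and their treatment with a compound named DDTC(I), but the letters C and D are not spelled out, and no dose or time is labelled, so differences are written as D minus C. Whether the libraries of a group stem from separate cultures is not labelled either, so the p-values measure no more than the spread among these samples, which may be technical.

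Pocket proteins bind E2F transcription factors and hold back genes of the cell cycle. In resting cells, the pocket protein encoded by RBL2 or RBL1 joins E2F4 or E2F5, a DP partner and the MuvB core in the DREAM complex, which represses genes of both DNA replication and mitosis. When cells cycle, the MuvB core leaves the pocket protein and takes up the MYBL2 protein and later the FOXM1 protein, and then activates the genes of G2 and mitosis. MuvB is therefore a shared platform for repression and activation, and its composition decides which of these it serves.

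Total counts per library ranged from 18446443 to 20602771. The D libraries differed among themselves more than the C libraries: chi-square divided by its degrees of freedom was 6.42 to 13.95 for pairs of C libraries and 21.4 to 94.96 for pairs of D libraries. D replicates 2 and 3 stood apart along gene length. The slope of log2 CPM on log2 length, taken as the deviation from the group mean, was 0.170 in D replicate 2 and −0.183 in D replicate 3, against −0.049 to 0.050 in C. Markers of osteoblasts went against the label in part. ALPL, the alkaline phosphatase known to be abundant in this line, had 8 to 15 counts per library, and the osteoblast genes SP7, BGLAP and IBSP did not pass the filter on low counts. Of the other osteoblast genes, 4 were well detected in C and lower in D. SPARC was at 1913 ± 162 and 681 ± 45.2 CPM and COL1A2 at 176 ± 27.3 and 49.9 ± 2.15 CPM. COL1A1 was at 23.3 ± 0.963 and 4.96 ± 0.585 CPM and RUNX2 at 19.6 ± 1.73 and 9.14 ± 1.97 CPM. SPP1, the last of the 6 osteoblast genes tested, went the other way and was called higher in D (log2 fold change 2.79). SaOS2 cells are also known for a deletion at the end of RB1, which counts per gene cannot show, since they do not separate exons. The cells are therefore named by their label only. Of the other cell types, the blood markers PTPRC, CD3E and CD14 had a mean of at most 0.578 CPM in either group. The endothelial markers PECAM1 (15.4 CPM in C and 11.4 in D) and CDH5 (4.24 and 0.551) and the epithelial keratins KRT18 (38.4 and 71.4) and KRT8 (43.9 and 42.2) were detected. The epithelial gene CDH1 was called higher in D (log2 fold change 1.87), while EPCAM and KRT19 did not pass the filter on low counts. The part of such other cell types in the results below was not tested.

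Of the 10 genes, 4 were higher and 2 were lower in D in edgeR's quasi-likelihood test (p adjusted by Benjamini-Hochberg, threshold 0.05), and 4 did not pass. The genes that rose were RBL1, LIN9, LIN37 and LIN54, and those that fell were RBL2 and FOXM1. Among all 12682 genes tested, 26.8% were called higher and 27.7% lower, so that 54.4% were called in either direction, and a share of 6 in 10 is near that background. The median log2 fold change of the 10 genes was 0.31, against −0.02 over all genes tested. The 3 D libraries all lay above the 3 C libraries for 5 genes and all below for 2, while 30.6% and 32.1% of all tested genes were separated in these directions, 62.7% in all. With gene length trends removed from each library, 7 of the 10 were called higher in place of 4, the additions being RB1, LIN52 and RBBP4. Calls also grew over the whole table, where 4169 of the 12682 genes tested were then called higher in place of 3393. In these bulk libraries, fewer cells in a phase of the cycle and less RNA per cell cannot be told apart.

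**Figure D1:**
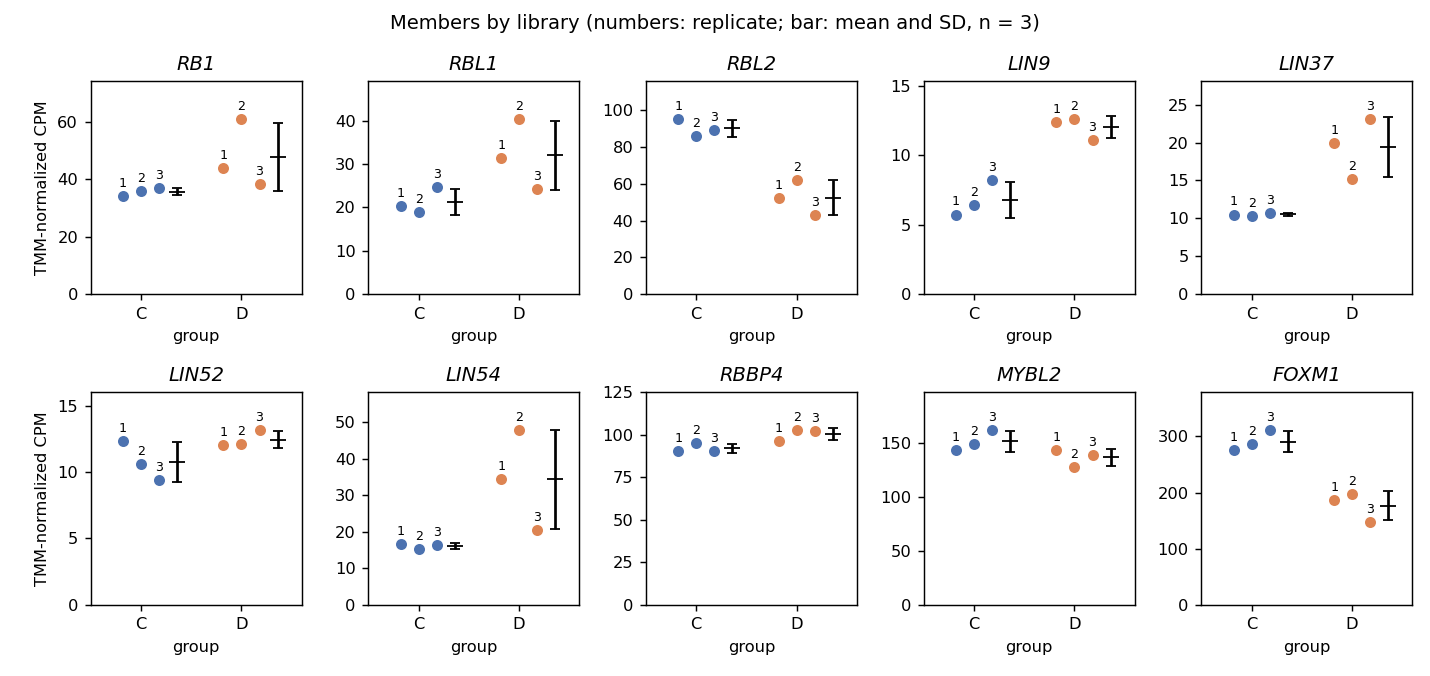
Normalized CPM of each of the 10 genes in each library, with group C in blue, group D in orange, the replicate number above each point and the mean with its SD (n = 3) in black; every vertical axis starts at 0 and has its own scale. RBL2 and FOXM1 lie lower in all 3 D libraries, LIN9, LIN37 and LIN54 lie higher, and the D points of RB1, RBL1 and LIN54 are spread widely, with replicate 2 the highest and replicate 3 the lowest.

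Among the pocket protein genes, RBL2 fell, RBL1 rose and RB1 did not pass the test. Values are CPM, that is, counts brought to one library size with TMM factors, a scaling that evens the bulk of genes between libraries. RBL2, which encodes the pocket protein typical of DREAM in resting cells, had 95.1, 86.2 and 89.3 CPM in C replicates 1 to 3 and 52.2, 61.9 and 42.9 CPM in D replicates 1 to 3. The highest D library was well below the lowest C library. The log2 fold change of RBL2 was −0.78 ± 0.14 (SE; adjusted p = 0.0018, edgeR), a level 0.581 times that of C, and it stayed between −0.93 and −0.65 under the 13 other settings tried, with the call kept in all of them.

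RBL1, which encodes the pocket protein found mainly in cycling cells and is itself a known E2F target gene, had 20.2, 18.9 and 24.6 CPM in C and 31.4, 40.3 and 24.3 CPM in D. The groups overlapped, since D replicate 3 lay just under C replicate 3. Its log2 fold change of 0.59 ± 0.19 passed the test (adjusted p = 0.029, edgeR). Leaving out C replicate 1 (0.55), C replicate 2 (0.51) or D replicate 1 (0.60) ended the call, as did library size as the only scaling (0.44) and the replicate block (0.57). RB1, the retinoblastoma gene, had 34.3, 35.9 and 37.1 CPM in C and 44.1, 60.9 and 38.3 CPM in D. The D libraries all lay above the C libraries, yet the spread within D was 11.7 CPM (SD) against 1.36 in C. The log2 fold change of RB1 was 0.42 ± 0.17 (adjusted p = 0.063, edgeR; 95% interval 0.03 to 0.80), and without D replicate 3 it was 0.56 and passed (adjusted p = 0.0014, edgeR). The excess of D over C for RB1 and RBL1 was therefore uneven, and it was largest in D replicate 2 for both.

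The balance between the 3 pocket protein transcripts changed more evenly than their levels did. It was read within each library from the deposited FPKM, which divide the counts by gene length and library total, so that a scaling of whole libraries has no effect on it. RBL2 made up 62.9%, 60.3% and 58.6% of the summed FPKM of the 3 genes in the C libraries and 40.5%, 37.5% and 40.1% in the D libraries. RB1 made up 25.5%, 28.2% and 27.4% in C and 38.4%, 41.4% and 40.3% in D. RBL1 made up 11.6%, 11.5% and 14.0% in C and 21.1%, 21.1% and 19.6% in D. In C, RBL2 was the most abundant pocket protein transcript of every library, and in D it was level with RB1. D replicates 2 and 3, which differed widely in the levels of these genes, gave nearly the same shares. The lengths of the 3 genes were 4778 bp for RB1, 6208 bp for RBL1 and 5375 bp for RBL2. With length trends removed, the log2 fold changes were 0.48 for RB1, 0.71 for RBL1 and −0.69 for RBL2, all called.

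The ratio of RBL2 to RBL1 on the FPKM scale was 5.42, 5.27 and 4.18 in C and 1.92, 1.78 and 2.04 in D. On the log2 scale, it fell from 2.30 ± 0.20 to 0.93 ± 0.10 (SD, n = 3 each), a difference of −1.37. The log2 ratio of RBL2 to RB1 fell from 1.16 ± 0.12 to −0.025 ± 0.11, while that of RBL1 to RB1 was −1.14 ± 0.17 in C and −0.96 ± 0.085 in D, with overlapping groups. The exact 2-sided permutation p was 0.1 for RBL2/RBL1 and for RBL2/RB1, the smallest that 3 against 3 allows, and 0.3 for RBL1/RB1. Over the 9 pairs of members compared in this way, the adjusted values were 0.15, 0.15 and 0.39 for these exact tests. A design of this size cannot reach 0.05 by permutation.

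**Figure D2:**
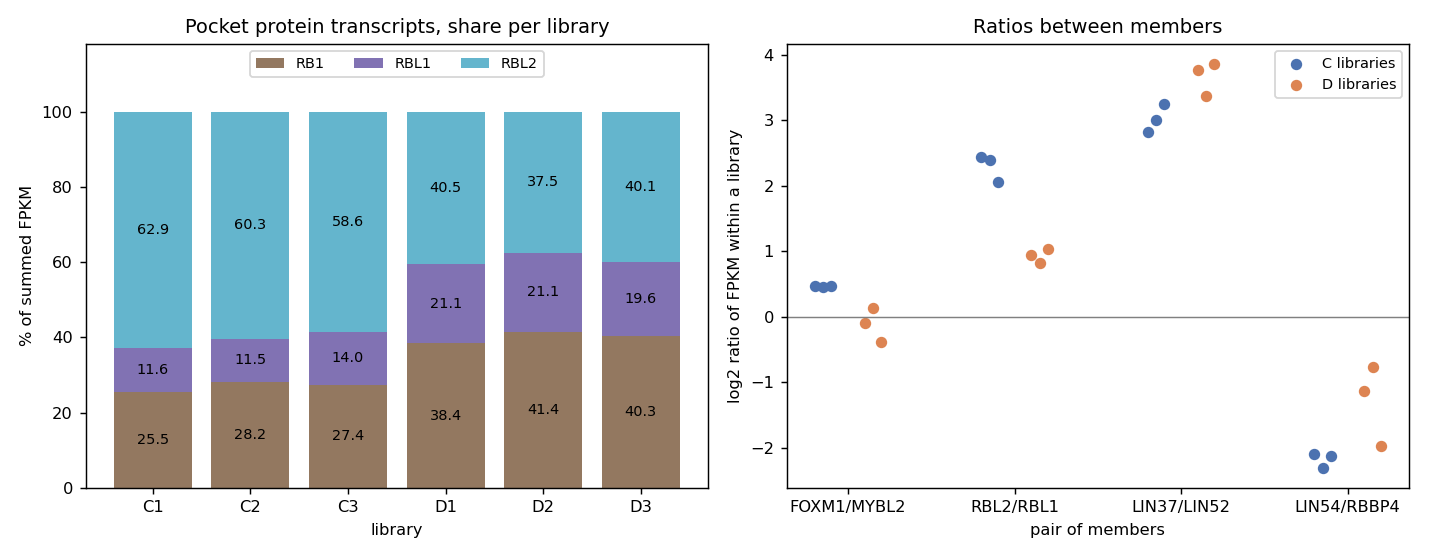
Left, the share of RB1, RBL1 and RBL2 in their summed FPKM in each library, in percent; right, the log2 ratio of FPKM between 2 members within each library, with C libraries in blue and D libraries in orange. The RBL2 share is 58.6% to 62.9% in C and 37.5% to 40.5% in D. The 4 ratios shown are from 9 compared, and their groups do not overlap. The ratios RBL1/RB1, LIN54/LIN9 and LIN9/LIN37, whose groups overlap, are not drawn.

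Of the 5 MuvB genes, LIN9, LIN37 and LIN54 rose in D, and LIN52 and RBBP4 did not pass the test. LIN54, which encodes the subunit that binds DNA at the cell cycle homology region of mitotic promoters, had 16.7, 15.3 and 16.3 CPM in C and 34.5, 47.8 and 20.6 CPM in D. All D libraries were higher, but D replicate 2 exceeded D replicate 3 by 1.21 on the log2 scale. Its log2 fold change was 1.09 ± 0.26 (adjusted p = 0.0076, edgeR), 2.13 times the C level, and the only one of the 10 past 2-fold. It was 0.81 without D replicate 2 and 1.37 without D replicate 3, and it was called in both cases.

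LIN37, which encodes a subunit needed for repression by MuvB, had 10.5, 10.3 and 10.8 CPM in C and 19.9, 15.2 and 23.1 CPM in D. The C libraries were nearly equal, all D libraries were higher, and here D replicate 3 was the highest and D replicate 2 the lowest, the reverse of LIN54. The log2 fold change of LIN37 was 0.88 ± 0.16 (adjusted p = 0.0019, edgeR). With 1132 bp, LIN37 is the shortest of the 10 genes, and with length trends removed its log2 fold change was 0.67 and still called. LIN9, which encodes the scaffold subunit to which MYBL2 binds together with the LIN52 protein, had 5.74, 6.42 and 8.25 CPM in C and 12.4, 12.6 and 11.1 CPM in D. All 3 D libraries were close to each other and above C, and the log2 fold change was 0.82 ± 0.16 (adjusted p = 0.0025, edgeR). The calls of LIN9, LIN37 and LIN54 were kept in all 13 other settings, with log2 fold changes of 0.67 to 0.98, 0.67 to 1.06 and 0.81 to 1.37.

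LIN52 encodes the subunit whose phosphorylation by the kinase DYRK1A joins MuvB to the pocket protein. It had 12.4, 10.6 and 9.38 CPM in C and 12.1, 12.1 and 13.2 CPM in D, and the groups overlapped. Its log2 fold change was 0.21 ± 0.14 (adjusted p = 0.22, edgeR; 95% interval −0.10 to 0.52). RBBP4, a histone-binding protein that also serves in chromatin complexes outside MuvB, had 90.2, 95.2 and 90.7 CPM in C and 96.3, 102.8 and 102.3 CPM in D. The D libraries all lay above C by a small step, and the log2 fold change was 0.13 ± 0.09 (adjusted p = 0.28, edgeR; 95% interval −0.09 to 0.34). The direction of RBBP4 turned to −0.026 with library size as the only scaling.

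The balance within MuvB also differed between the groups for some pairs. The ratio of LIN54 to RBBP4 on the FPKM scale was 0.234, 0.203 and 0.228 in C and 0.454, 0.589 and 0.254 in D, higher in each D library. The ratio of LIN37 to LIN52 was 7.05, 8.04 and 9.51 in C and 13.7, 10.4 and 14.5 in D, also without overlap. LIN37 is the shortest and LIN52 the longest of the 10 genes, and with length trends removed their log2 fold changes were much closer, at 0.67 and 0.46. Both had an exact 2-sided permutation p of 0.1 (adjusted 0.15). The log2 ratio of LIN9 to LIN37 was −2.81 ± 0.25 (SD) in the 3 C libraries and −2.84 ± 0.39 in the 3 D libraries (exact permutation p = 0.9), and that of LIN54 to LIN9 was 0.95 ± 0.27 and 1.12 ± 0.52 (exact permutation p = 0.7), so neither differed beyond the spread between libraries. The summed FPKM of LIN9, LIN37, LIN52 and LIN54 was 14.6 to 15.6 in C and 24.1 to 25.8 in D, the larger part of it from LIN37, while the FPKM of RBBP4 was 11.9 to 12.6 in C and 11.6 to 12.5 in D.

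FOXM1 fell, and MYBL2 did not pass the test. FOXM1, a forkhead factor that binds MuvB late in the cycle and drives mitotic genes, had 275, 286 and 311 CPM in C and 187, 197 and 147 CPM in D. The groups were far apart, and the lowest C library exceeded the highest D library. Its log2 fold change was −0.72 ± 0.13 (adjusted p = 0.0018, edgeR), 0.608 times the C level, with a range of −0.86 to −0.59 over the 13 other settings and the call kept in all. MYBL2, which encodes the Myb family factor that joins MuvB in S phase, had 143, 149 and 162 CPM in C and 144, 128 and 139 CPM in D. D replicate 1 lay just above C replicate 1, so the groups overlapped. The log2 fold change of MYBL2 was −0.15 ± 0.10 (adjusted p = 0.24, edgeR; 95% interval −0.38 to 0.08), and it was called with library size as the only scaling (−0.30, adjusted p = 0.030, edgeR), a scaling that moves the median of all genes to −0.17.

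On the FPKM scale, the ratio of FOXM1 to MYBL2 was 1.38, 1.38 and 1.38 in C and 0.933, 1.10 and 0.763 in D. The C libraries agreed closely, and every D library was lower. The log2 ratio changed by −0.58 (exact 2-sided permutation p = 0.1, adjusted 0.15). The ratio of MYBL2 to LIN9 fell as well, by 0.99 on the log2 scale, from 5.42 ± 0.18 to 4.44 ± 0.15 (SD, n = 3; exact permutation p = 0.1).

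Other Myb family genes and the LIN54 paralog TESMIN were lower in D. MYBL1 fell from 30.0 ± 2.40 to 15.2 ± 3.88 CPM (log2 fold change −0.98 ± 0.18, adjusted p = 0.0019, edgeR). MYB was near the detection floor, with 13, 20 and 21 counts in C and 3, 4 and 3 counts in D. TESMIN fell from 5.25 ± 0.357 to 3.16 ± 0.852 CPM (−0.74 ± 0.21, adjusted p = 0.016, edgeR), a call lost without C replicate 1 (−0.74) and without C replicate 2 (−0.69).

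Set side by side per gene length, the 10 genes spanned a wide range of levels. In C, the mean FPKM was 82.6 ± 5.53 for FOXM1, 59.9 ± 3.98 for MYBL2, 17.7 ± 0.895 for RBL2, 12.2 ± 0.331 for RBBP4, 9.80 ± 0.248 for LIN37 and 7.89 ± 0.320 for RB1. RBL1 (3.61 ± 0.524), LIN54 (2.69 ± 0.130), LIN9 (1.41 ± 0.273) and LIN52 (1.21 ± 0.165) followed. Of the 9 neighbouring pairs in this order, 1 overlapped between libraries, LIN9 with LIN52. In D, the order began with MYBL2 (48.7 ± 2.72) and FOXM1 (45.3 ± 7.997), which overlapped, and went on with LIN37 (16.2 ± 2.87), RBBP4 (12.0 ± 0.488), RB1 (9.52 ± 2.58), RBL2 (9.27 ± 1.94), LIN54 (5.21 ± 2.19), RBL1 (4.91 ± 1.36), LIN9 (2.25 ± 0.218) and LIN52 (1.26 ± 0.0238). From RBBP4 to RBL1, each neighbour in this D order overlapped with the next, so 5 of the 9 pairs were not separated. The authors' lengths of LIN52 (9385 bp) and RBBP4 (7960 bp) are the longest of the 10, and a level per length would be understated where the cells use a shorter transcript, which was not tested.

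The G2 and mitosis genes that MuvB, MYBL2 and FOXM1 are known to activate were read from a list of 30. The list was chosen with earlier results of these data known, so its counts are a description and no independent support. All 30 genes were called lower in D, against 27.7% of all genes tested. Of them, 29 fell at least 2-fold, against 1284 of all 12682 genes tested. Their median log2 fold change was −1.45, against −0.02 over all genes tested. Their summed level was 5509 to 5770 CPM in the C libraries and 1867 to 1908 CPM in the D libraries. The falls with the lowest p were in KIF20A, a kinesin of the late spindle, from 265 ± 12.1 to 28.8 ± 2.72 CPM (−3.21 ± 0.11), and in CCNF, which encodes cyclin F, from 98.1 ± 4.32 to 12.9 ± 0.893 CPM (−2.92 ± 0.11). The log2 fold change of FOXM1 was smaller in size than that of 29 of the 30, the exception being BIRC5 (−0.59), the survivin gene, which was named after its value was seen. MYBL2 had a smaller change than all 30. On the fitted scale, both activator transcripts thus changed less than nearly all of the genes they are known to serve, and that difference was not tested.

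Genes of the G1/S step, which pocket proteins with E2F factors control, changed less and in both directions. Of 30, 4 rose, 9 fell and 17 did not pass, with a median of −0.18. The share called lower was near the 27.7% of all tested genes, and the share called higher was below their 26.8%. CDCA7, a partner of the chromatin remodeller HELLS, fell from 33.6 ± 3.34 to 14.9 ± 1.23 CPM (−1.18 ± 0.13), and TYMS, thymidylate synthase, fell from 131 ± 3.31 to 74.5 ± 5.11 CPM (−0.82 ± 0.10). CHAF1A, a subunit of the chromatin assembly factor that also contains RBBP4, rose from 36.5 ± 3.18 to 51.1 ± 1.24 CPM (0.49 ± 0.11), and MCM7, a subunit of the replicative helicase, rose from 145 ± 13.4 to 200 ± 5.63 CPM (0.46 ± 0.10). The adjusted p of these 4 genes was at most 0.0055 (edgeR). The log2 fold change of RBL1, 0.59, was above that of all 30 G1/S genes. With library size only 15 of the 30 were called lower, with length trends removed 14, and without C replicate 1 there were 2 called higher. Over all genes, 4449 were called lower with library size only and 3854 with length trends removed, in place of 3509. Without C replicate 1, 2627 of all genes were called higher in place of 3393.

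**Figure D3:**
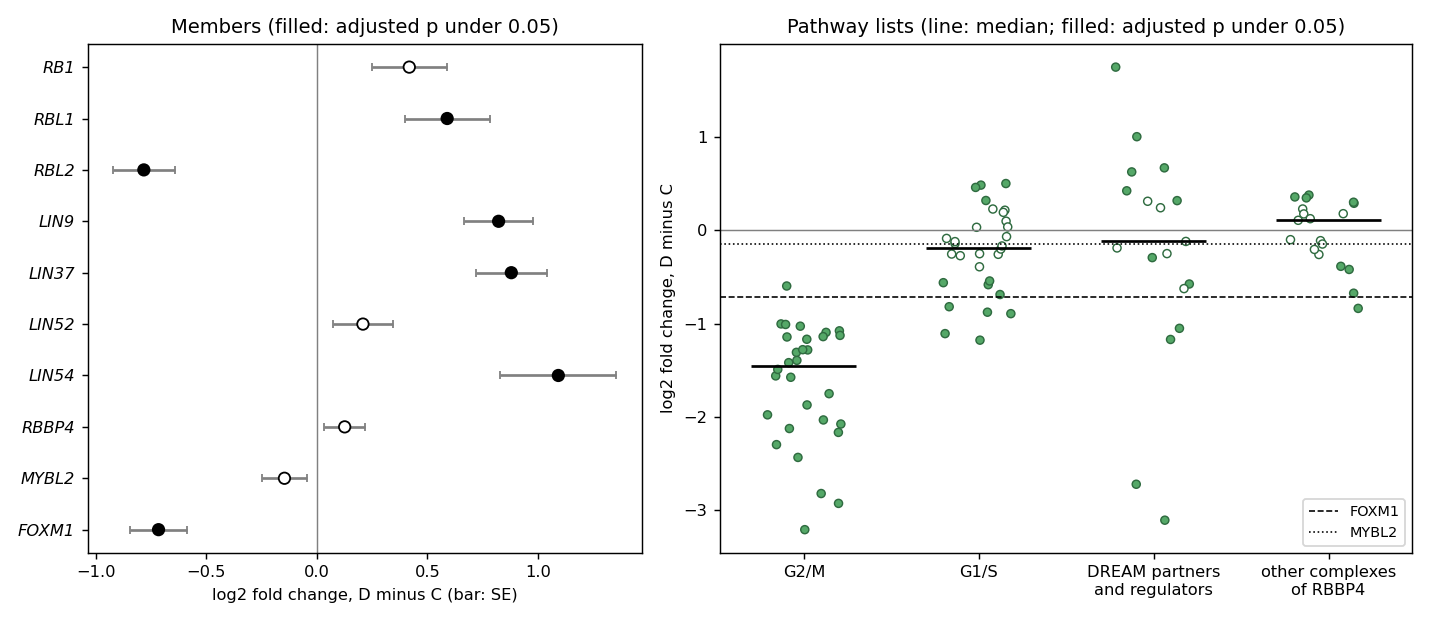
Left, log2 fold change (D minus C) of the 10 genes with its standard error, filled where the adjusted p is under 0.05; right, log2 fold changes of the genes of 4 pathway lists with the list median as a black line, and FOXM1 and MYBL2 as broken lines. All 30 G2/M genes lie below 0 with a median of −1.45, all but BIRC5 below FOXM1, while the G1/S genes lie around a median of −0.18; CDKN1C, at or under the detection floor in C, is not drawn.

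The partners that complete DREAM and the regulators of pocket proteins went both ways. Of a list of 22 genes, 19 were tested, and 7 rose, 6 fell and 6 did not pass, to be set beside 26.8% higher and 27.7% lower among all genes tested. E2F6, a repressive E2F that acts without pocket proteins, rose from 12.7 ± 1.55 to 42.8 ± 1.86 CPM (1.75 ± 0.13, adjusted p = 2.2e-05, edgeR). E2F8, an atypical E2F repressor, fell from 16.5 ± 0.399 to 1.90 ± 0.741 CPM (−3.10 ± 0.23, adjusted p = 2.2e-05, edgeR). CDKN2C, an inhibitor of the cyclin D kinases, fell from 32.5 ± 2.43 to 4.94 ± 0.349 CPM (−2.72 ± 0.13). CDKN1C, an inhibitor of cyclin kinases, was at or under 3 counts in each C library and reached 1.46 ± 0.710 CPM in D.

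The following genes of this list were named after their values were seen, because their products form DREAM or act on pocket proteins. E2F4, the main E2F of DREAM, rose from 191 ± 17.6 to 295 ± 30.2 CPM (0.63 ± 0.12, adjusted p = 0.0023, edgeR), and E2F5 did not pass (0.24, 95% interval −0.14 to 0.62). Of the DP genes, TFDP2 was called higher (0.32) and TFDP1 lower (−0.29). The TFDP2 call was lost without C replicate 1, 2 or 3 or D replicate 1 (0.30 to 0.33), with library size only (0.17) and with the replicate block (0.32). The TFDP1 call was lost with RLE factors (−0.26), without the filter (−0.30), with DESeq2 (−0.27) and with the replicate block (−0.29). It was also lost without C replicate 1, 2 or 3, D replicate 1 or D replicate 3 (−0.36 to −0.23). Neither call held at an adjusted p under 0.01 (edgeR). DYRK1A, the kinase that assembles DREAM, did not pass (0.31 ± 0.14, adjusted p = 0.093, edgeR), but passed with length trends removed (0.57, adjusted p = 0.00033, edgeR) and when D replicate 3 was left out (0.44).

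Of the kinases that act on pocket proteins, CDK2 fell from 116 ± 2.98 to 51.8 ± 2.81 CPM (−1.17 ± 0.10), and CDK4 rose from 201 ± 14.9 to 320 ± 55.4 CPM (0.67 ± 0.14). Of their inhibitors, CDKN1A rose from 33.6 ± 2.18 to 67.4 ± 13.4 CPM (1.01 ± 0.15), while CDKN1B fell from 30.9 ± 4.04 to 14.9 ± 0.570 CPM (−1.05 ± 0.13). The adjusted p of these 4 genes was at most 0.0036 (edgeR).

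RBBP4 is shared with other chromatin complexes, whose genes were read from a list of 19. Of these, 5 rose, 4 fell and 10 did not pass, with a median of 0.11, beside 26.8% higher and 27.7% lower over the whole table, which is near or above these shares. None reached 2-fold. SIN3A, a corepressor scaffold, fell from 65.6 ± 6.08 to 36.8 ± 10.4 CPM (−0.83 ± 0.20), and CHD4, the NuRD remodeller, from 391 ± 18.01 to 245 ± 43.1 CPM (−0.67 ± 0.14). The adjusted p of both was at most 0.0074 (edgeR). EZH2, the methyltransferase of Polycomb complex PRC2, was called higher (0.38 ± 0.11), as was the NuRD gene MTA3 (0.35 ± 0.11). The number called higher rested on single libraries: leaving out C replicate 1 or C replicate 3 gave 0, leaving out C replicate 2 gave 1, and leaving out D replicate 1 gave 2. It was also 0 with library size only and 0 with the replicate block, where 2586 and 2694 of all genes were called higher. Over all genes, leaving out 1 library gave 2627 to 3888 called higher, beside 3393 with all 6. RBBP7, the paralog of RBBP4, was named after its value was seen and fell from 170 ± 8.01 to 130 ± 8.97 CPM (−0.38 ± 0.10, adjusted p = 0.011, edgeR), a call lost without C replicate 2 (−0.35) and with the replicate block (−0.39).

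The spread of the 10 genes within D followed gene length in part. D replicate 2 exceeded D replicate 3 on the log2 scale by 1.21 for LIN54, 0.73 for RBL1, 0.67 for RB1, 0.53 for RBL2 and 0.42 for FOXM1. It lay below D replicate 3 by 0.60 for LIN37. The difference was between −0.12 and 0.18 for LIN9, LIN52, RBBP4 and MYBL2. Over all tested genes, the median of this difference was −0.59 in genes of up to 1500 bp and 0.50 in genes over 6000 bp. LIN37 thus had the value usual for its length, while LIN52 and RBBP4, the longest, did not show the excess usual for theirs. Across the 10 genes, the difference had a Pearson r of 0.50 and a Spearman rho of 0.25 with log2 length, given as a description of genes measured in the same 2 libraries. Differences between C and D also varied with length over all tested genes. The median log2 fold change was 0.25 in genes of up to 1500 bp and −0.20 in genes over 6000 bp. The part of the length trend in the differences between C and D was not tested beyond removing it. Its removal left LIN9, LIN37, LIN54 and RBL1 higher and RBL2 and FOXM1 lower.

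**Figure D4:**
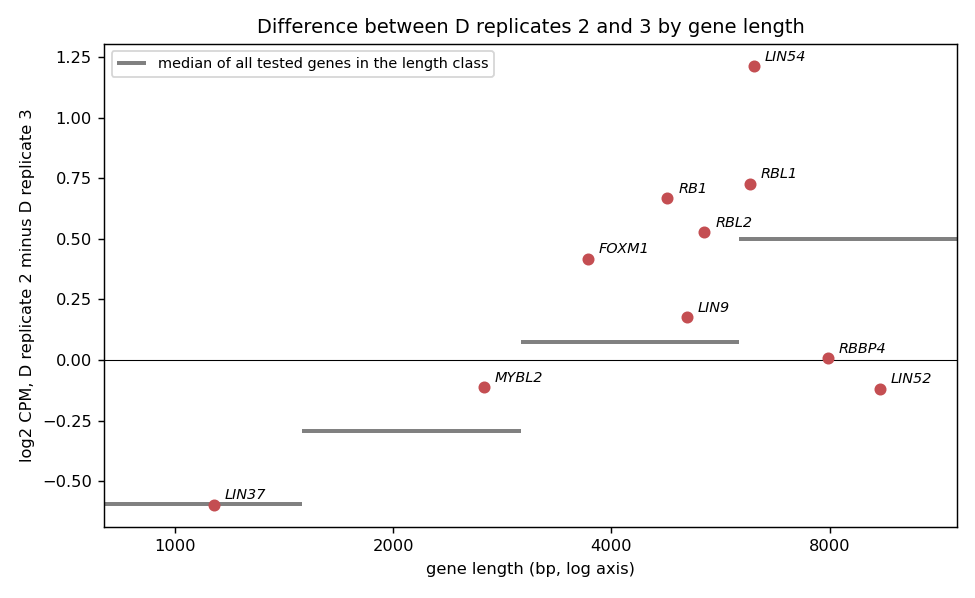
Difference in log2 CPM between D replicates 2 and 3 for each of the 10 genes against gene length in bp on a log axis, with grey bars at the median of all tested genes in 4 length classes. The class medians run from −0.59 in the shortest to 0.50 in the longest genes; LIN37 sits on its bar, LIN54 lies above its bar at 1.21, and RBBP4 and LIN52 lie below theirs.

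For each called gene, the genes with the most similar profile were found among the 9442 other genes whose mean log2 CPM reached 3, by the root mean square difference of centred log2 CPM over the 6 libraries. Among the nearest to FOXM1 were CLMP (0.025) and MINK1 (0.038). None of the 30 mitotic genes was among its 3 nearest, but this distance counts the size of the difference between C and D. Since 29 of the 30 fell more than FOXM1, their absence does not show whether they vary together with it. Nearest to RBL2 were METTL15, SLC44A1 and ZNF550 (0.022 to 0.044). Nearest to RBL1 were HEATR1, SIK3 and WRN (0.035 to 0.064). Nearest to LIN54 were CPEB4, SYNE1 and NIBAN1 (0.063 to 0.094), which, like LIN54, are over 6000 bp long. That they too were highest in D replicate 2 follows from the choice by profile. Nearest to LIN37 were GFER, SMIM29 and SERTAD3 (0.042 to 0.062), with lengths of 1070 to 2365 bp. Their highest value in D replicate 3 likewise follows from the choice by profile. Among the nearest to LIN9 were SLC43A3 (0.057) and FASTKD5 (0.062).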

How the data were processed

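For each library the authors deposited whole-number gene counts by symbol, per the file headers, and FPKM values. The deposited FPKM equalled the count divided by the library total and by a fixed gene length, within a relative tolerance of 0.001 for 17144 of 17144 genes, and that length was used here. No source used here gives the aligner, the counter or the use of strand. The labels name the mouse and the submitters' processing notes name GRCm38 and mm10, but 0 of the 10 symbols matched a mouse symbol in letter case, so no coordinates or sequences are given. FPKM served for levels between genes and ratios, with no test across genes.

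The counts were analysed with edgeR 4.0.16 in R 4.3.3: filterByExpr (12682 genes kept, 4462 left out, 99.952% of counts kept), TMM factors, quasi-likelihood F test, 2-sided, group as the only term, Benjamini-Hochberg adjustment over all kept genes. Standard errors are the fold change divided by the square root of F, and log2 CPM used a prior count of 2. The test was checked on simulated counts with equal spread in both groups and far fewer changed genes than were called here. The D libraries spread more than the C libraries, so that check does not cover the conditions of these data. A floor of 3 counts was 0.146 to 0.163 CPM and covers counting error only.

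Members and lists were chosen with earlier results of these data known. Named genes were the 10 members, up to 2 called genes per direction with the lowest p from each of 4 pathway lists, paralogs, identity genes of the line (CDKN2A, COL1A1 and RUNX2 among them; CDKN2A was not analysed here, and COL1A1 and RUNX2 were lower in D, with log2 fold changes of −2.23 and −1.10) and the 3 genes most like each called member; a few genes under this rule are not reported here. The osteoblast markers had 1 of 6 tested genes higher and 4 lower, the epithelial markers 2 of 3 higher and 0 lower, and the blood and endothelial markers 0 of 2 higher and 2 lower. Alternatives were RLE factors, library size only, no filter, DESeq2 1.42.0, the replicate number as a block, length trends removed (lowess, span 0.4), an adjusted p under 0.01 and each library left out.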

Additional observations from a re-analysis of the deposited data

How the results depend on the processing

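Of the 10 genes, RBL2, LIN9, LIN37, LIN54 and FOXM1 kept their direction and their call in all 13 other settings. RB1, not called at 0.42, was called with RLE factors (0.44), DESeq2 (0.43) and length trends removed (0.48), and leaving out libraries gave 0.24 to 0.56. RBL1 lost its call with library size only (0.44), with the replicate block (0.57) and at an adjusted p under 0.01 (0.59), and leaving out libraries gave 0.42 to 0.76. With length trends removed, LIN52 (0.46) and RBBP4 (0.34) were called and 7 of the 10 genes were higher. Over all genes, 4169 were then called higher in place of 3393. With library size only, RBBP4 turned to −0.026 and MYBL2 was called (−0.30). For the G1/S genes, 2 were called higher at an adjusted p under 0.01, 2 to 6 when libraries were left out, and 15 and 14 were called lower with library size only and with length trends removed. For the other complexes of RBBP4, the number called higher was 0 with library size only, 2 without the filter, 0 with the replicate block, 0 at an adjusted p under 0.01 and 0 to 6 when libraries were left out, and the number called lower was 2 with the block and 2 at an adjusted p under 0.01. The G2/M genes had 29 or 30 called lower in every setting. Over all genes, the 13 other settings gave 2393 to 4169 called higher and 2472 to 4449 called lower.

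Deviations from the group means correlated by 0.01, −0.40 and −0.36 for replicates 1, 2 and 3, and C replicates 2 and 3 correlated best with D replicates 3 and 2. The length slopes of C replicate 2 (−0.049) and D replicate 3 (−0.183) share a sign, as do those of C replicate 3 (0.050) and D replicate 2 (0.170). Length trends were not removed from these deviations, so they cannot show whether the replicate numbers mark pairs. The replicate block changed no call of the 10 genes other than that of RBL1. Counting depth limits LIN9 most, which had 112 to 242 counts per library, and for MYB, with 3 or 4 counts in D, no fold is given.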
